A study of Homo sapiens with 12 samples.

Results

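Fibroblasts with a scramble hairpin (shScr) were compared 4 days after the activation of an oncogenic Ras with the same cells at day 0. The comparison rests on 4 of the 12 poly(A) RNA libraries of the series, 2 at day 4 and 2 at day 0. The other libraries, shScr cells at day 10 and cells with a hairpin against the interleukin-1 receptor (shIL1R) at days 0, 4 and 10, entered the fit and served for the side-by-side values given further on. The cells were IMR90, diploid fibroblasts from human fetal lung, that carried hTERT, the catalytic protein of telomerase, and RasERT2, a Ras oncoprotein fused to an estrogen receptor domain that tamoxifen switches on. Hairpins were induced with doxycycline at 0.5 ug/ml in all groups, and the cells then received tamoxifen at 200 nM or its ethanol solvent. The labels call day 0 the growing phase and place the onset of the senescence-associated secretory phenotype (SASP) at day 4. They do not say which libraries received ethanol, and no day 4 library without Ras activation was at hand, so Ras, tamoxifen and days in culture cannot be told apart here. They also do not say whether libraries 1 and 2 of a group came from separate cultures, so p-values may reflect only technical spread among these libraries. Of 27106 genes in the deposited table, 13924 had 10 or more normalized counts (reads divided by a library factor) in at least 2 of the 12 libraries and were tested.

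Ras passes signals from growth factor receptors to the RAF, MEK and ERK kinases, which switch on immediate early transcription factors and, with some delay, the phosphatases and Sprouty proteins that damp the pathway. In normal human fibroblasts a constantly active Ras first drives and then stops division: the CDK inhibitors encoded by CDKN1A, CDKN2A and CDKN2B hold RB-family proteins on E2F target genes, and the cells become senescent. Senescent fibroblasts lose lamin B1, change their chromatin and secrete cytokines, proteases and growth factors, with interleukin-1 acting on its receptor as an upstream part of that programme.

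Promoter sequences are shown first for 7 genes whose families dominate the comparison, because the cell cycle genes that fell and the early response gene EGR1 that rose are classic bearers of defined promoter elements. They were picked after their values were seen. Each line gives the 250 bases before the RefSeq transcription start on GRCh38.p14, read 5′ to 3′ on the gene's strand. Capitals mark, on either strand, CHR elements (TTTGAA) and CCAAT boxes in CDC20 (chr1:43358731-43358980, plus strand), PLK1 (chr16:23678639-23678888, plus strand), CCNB2 (chr15:59104896-59105145, plus strand) and MKI67 (chr10:128126424-128126673, minus strand). In MCM3 (chr6:52284743-52284992, minus strand) and PCNA (chr20:5126623-5126872, minus strand) capitals mark the E2F motif TTCCCGC, and in EGR1 (chr5:138465229-138465478, plus strand) they mark CArG boxes, the sites read by serum response factor.
CDC20: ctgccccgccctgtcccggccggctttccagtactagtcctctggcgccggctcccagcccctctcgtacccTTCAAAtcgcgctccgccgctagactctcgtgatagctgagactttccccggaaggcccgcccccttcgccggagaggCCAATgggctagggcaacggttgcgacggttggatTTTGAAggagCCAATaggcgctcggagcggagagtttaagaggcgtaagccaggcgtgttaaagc
PLK1: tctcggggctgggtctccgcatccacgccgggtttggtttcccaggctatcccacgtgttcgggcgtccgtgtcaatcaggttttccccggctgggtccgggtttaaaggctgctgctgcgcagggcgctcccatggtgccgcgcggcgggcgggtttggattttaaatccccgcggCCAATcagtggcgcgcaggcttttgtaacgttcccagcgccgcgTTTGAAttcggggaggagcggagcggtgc
CCNB2: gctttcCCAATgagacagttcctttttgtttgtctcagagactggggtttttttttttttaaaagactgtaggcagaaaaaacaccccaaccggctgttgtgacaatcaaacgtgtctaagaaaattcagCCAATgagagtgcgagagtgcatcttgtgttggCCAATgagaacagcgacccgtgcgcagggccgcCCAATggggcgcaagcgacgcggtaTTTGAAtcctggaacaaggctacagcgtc
MKI67: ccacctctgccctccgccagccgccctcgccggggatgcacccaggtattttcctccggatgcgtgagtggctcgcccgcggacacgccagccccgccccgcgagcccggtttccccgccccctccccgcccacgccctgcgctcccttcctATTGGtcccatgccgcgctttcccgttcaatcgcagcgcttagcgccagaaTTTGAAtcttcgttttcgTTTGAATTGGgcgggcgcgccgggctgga
MCM3: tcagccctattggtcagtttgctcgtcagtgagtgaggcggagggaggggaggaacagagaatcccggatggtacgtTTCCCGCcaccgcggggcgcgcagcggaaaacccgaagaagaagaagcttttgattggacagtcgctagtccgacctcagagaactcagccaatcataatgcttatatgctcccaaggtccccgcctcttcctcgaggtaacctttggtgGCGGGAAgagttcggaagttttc
PCNA: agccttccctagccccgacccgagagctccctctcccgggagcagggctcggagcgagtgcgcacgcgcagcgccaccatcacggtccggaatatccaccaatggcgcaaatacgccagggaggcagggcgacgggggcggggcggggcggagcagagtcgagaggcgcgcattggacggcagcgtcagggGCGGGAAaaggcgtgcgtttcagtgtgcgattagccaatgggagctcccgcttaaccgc
EGR1: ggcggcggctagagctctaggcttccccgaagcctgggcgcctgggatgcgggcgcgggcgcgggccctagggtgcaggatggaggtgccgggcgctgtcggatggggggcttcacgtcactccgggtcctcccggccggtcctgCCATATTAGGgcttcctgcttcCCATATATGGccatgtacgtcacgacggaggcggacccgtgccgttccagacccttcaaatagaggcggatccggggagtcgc
The second of the CHR elements in MKI67 shares 1 base with the reversed CCAAT box that follows it. Each gene was marked only for the motifs named for it. Unmarked matches remain, such as a reversed CHR element in EGR1 and CCAAT boxes in MCM3 and PCNA. A match is a description of letters and not a binding site, and none of the protein factors was measured on DNA here.

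The same motifs were searched on both strands in all 35116 promoter windows of the RefSeq table, from 250 bases before to 50 bases after each start. A CHR element stood in 43 of 76 windows of the mitosis list (56.6%), in 1 of 55 windows of the DNA replication list (1.82%) and in 15.2% of all windows. Windows with both a CHR element and a CCAAT box made up 43.4% of the mitosis windows and 5.9% of all windows. The E2F motif stood in 36.4% of the replication windows, 36.8% of the DNA repair and checkpoint windows, 13.2% of the mitosis windows and 6.55% of all windows. The NF-kB motif was present in 43.8% of the windows of the NF-kB list and in 35.1% of those of the cytokine list, against 5.91% of all windows. The NF-kB list holds subunits and known targets, so its share was partly set by its make-up and says nothing about day 4. Windows of the genes tested had a CHR element in 10.6%, the E2F motif in 9.31% and the NF-kB motif in 6.68%.

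**Figure D1:**
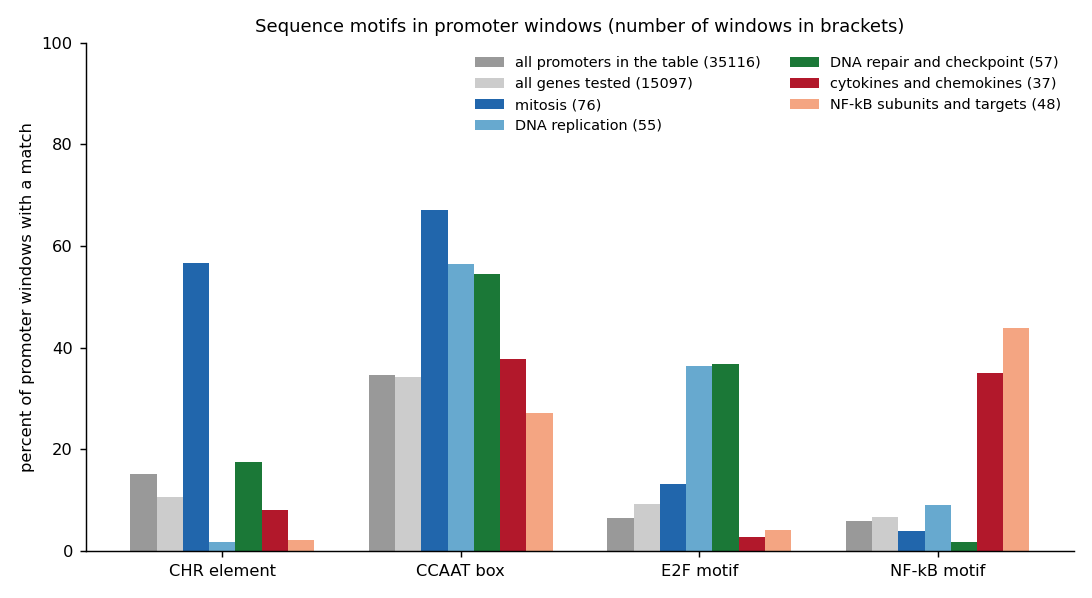
Percent of promoter windows (y axis) with at least 1 match to each motif (x axis), for all windows, the windows of the genes tested and those of 5 gene lists. The mitosis windows stand out for the CHR element (56.6%), the replication and repair windows for the E2F motif (36.4% and 36.8%) and the cytokine and NF-kB windows for the NF-kB motif (35.1% and 43.8%).

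From day 0 to day 4, 2698 genes rose and 2628 fell (19.4% and 18.9% of those tested) at a limma adjusted p below 0.05. These shares are the background for every list count below. A change of at least 2-fold was called for 812 of the higher and 953 of the lower genes, and of at least 4-fold for 237 and 205. The median log2 change over all genes tested was -0.0053, and a negative log2 change throughout means a lower level at day 4. The count of called genes, 5326 in all, was 3472 without the first day 0 library, 3332 without the second, and 3493 without the first day 4 library. The 4 libraries held 27086146 to 30127727 gene-assigned reads. No gene with a mean of 50 or more normalized counts differed 2-fold between the day 0 libraries, and 32 did between the day 4 libraries. The ribosomal RNA gene RNA45S5 took 1.34% and 1.42% of the reads at day 0 and 1.79% and 3.41% at day 4; its part in the results was not tested.

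**Figure D2:**
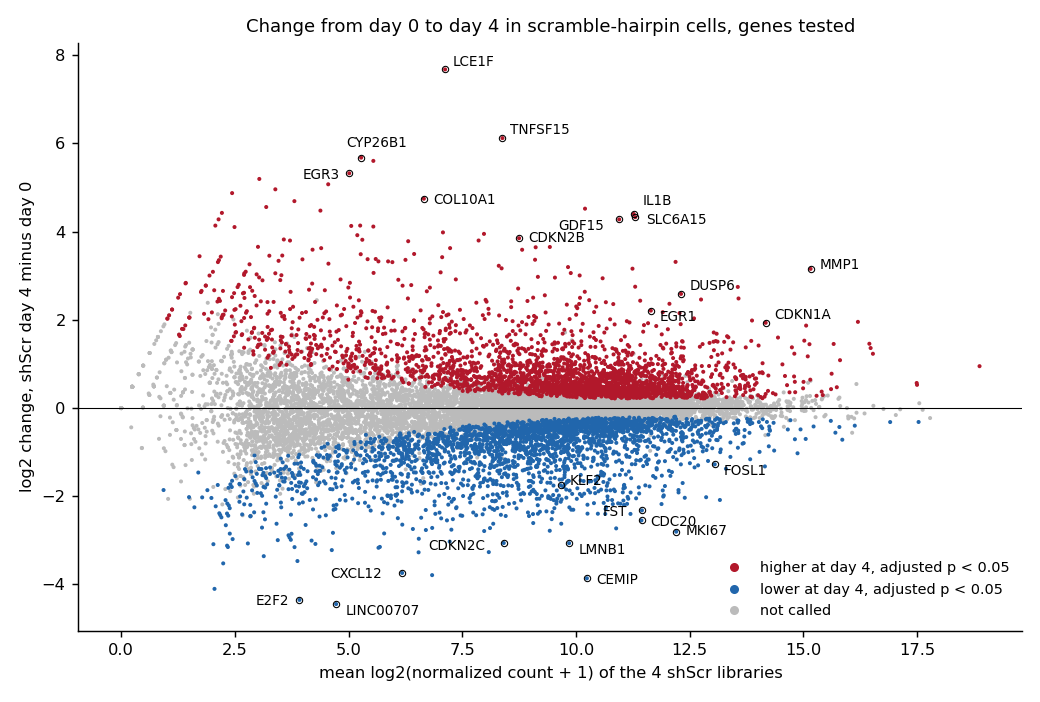
Log2 change from day 0 to day 4 in shScr cells (y axis) against the mean log2 level of the 4 libraries (x axis), 1 point per gene tested, red where higher and blue where lower at an adjusted p below 0.05. Circled genes are named in the text, from LCE1F (7.68) at the top to LINC00707 (-4.44) at the bottom.

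The cells carried fibroblast transcripts throughout. The summed level of 18 lung fibroblast markers was 743550 and 724856 normalized counts at day 0 and 897861 and 827265 at day 4. Among them 1 marker stayed under 10 in all 4 libraries. The sum hides a split, since 6 of the 17 tested markers rose and 3 fell (median log2 change 0.11). DCN and LUM were among the lower ones. Of 10 epithelial markers 9 stayed under 10 and 5 were at 0 in all 4, among them KRT5, KRT14 and SFTPC, and their sum was 101 and 158 at day 0 and 69.4 and 101 at day 4. Of 9 leukocyte markers 4 were at 0, among them PTPRC (CD45), CD3E and SPI1. The leukocyte sum, 2878 and 3164 at day 0 and 4706 and 4320 at day 4, was nearly all CD68, a lysosomal protein that fibroblasts also make. The 8 endothelial markers summed to 1825 and 1687 at day 0 and to 1564 and 1220 at day 4, nearly all of it TEK, with CDH5 at 0. Of the 5 tested endothelial markers 3 rose and 1 fell (median log2 change 1.62), and 1 or 2 rose without any 1 of the 4 libraries. TIE1, an endothelial receptor gene, rose from 32.2 and 32.5 to 177 and 195 (log2 change 2.49, SE 0.30). KDR and VWF rose at low levels, KDR from 2.76 and 1.67 to 26.6 and 6.63 and VWF from 11 and 2.5 to 18.1 and 19.9. TEK fell from 1775 and 1644 to 1334 and 992 (-0.57, SE 0.18). Each of these last 3 calls was lost without at least 1 of the 4 libraries, and the log2 change then ranged from 1.27 to 3.13 for KDR, 0.73 to 2.51 for VWF and -0.78 to -0.36 for TEK. The part of these markers in the results was not tested. In such bulk RNA, fewer cells of a kind and less RNA per cell cannot be told apart.

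IL1R1, which encodes the interleukin-1 receptor and is the target of the other hairpin, was read first as a check of the labels. It measured 1509 and 1552 normalized counts at day 0 and 1546 and 1423 at day 4 in shScr cells. It measured 731 and 378 at day 0 and 272 and 86.4 at day 4 in shIL1R cells, below every shScr library. HRAS, a Ras gene, measured 43044 and 43386 at day 0 and 29774 and 23750 at day 4. Day 4 libraries were the lower ones, and HRAS fell by 0.70 on the log2 scale (SE 0.17, limma adjusted p = 0.00821), a call that was lost without the second day 4 library. The labels do not name the Ras isoform of the fusion, and gene-level counts do not separate a transgene from its endogenous gene.

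Genes that answer and damp ERK signalling were higher at day 4. Of 23 tested members of the MAPK feedback list 12 rose and 1 fell, with a median log2 change of 0.66. DUSP6, a phosphatase that inactivates ERK in the cytoplasm, measured 2063 and 2069 normalized counts at day 0 and 13700 and 11278 at day 4. Both day 4 libraries lay far above both day 0 libraries, and the log2 change was 2.59 (SE 0.12, limma adjusted p = 3.72e-07). DUSP4, a nuclear phosphatase of the same family, went from 141 and 164 to 645 and 665 (log2 change 2.10, SE 0.14), again without overlap. SPRY2, a Sprouty inhibitor of receptor signalling to Ras, went from 2153 and 2314 to 8707 and 6820. The log2 change of SPRY2 was 1.79 (SE 0.23, limma adjusted p = 0.000173). DUSP5, a nuclear ERK phosphatase, showed a wider spread at day 4, with 9371 and 4676 normalized counts against 1803 and 1844 at day 0. Both day 4 libraries were above day 0 although they differed 2-fold from each other, and the log2 change was 1.86 with an SE of 0.39. MAPK3, which encodes the kinase ERK1, rose by 0.73 (SE 0.08), and RASSF1, a tumour suppressor that binds active Ras, fell by 0.87 (SE 0.11). In the list of Ras and Ras regulators 6 of 35 tested members rose and 3 fell (17.1% and 8.57%). Over all genes tested the shares were 19.4% and 18.9%.

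Transcription factors of the immediate early response gave rises and falls. In the list of EGR, ETS, MYC and SRF-type regulators 16 of 26 tested members rose and 1 fell (median log2 change 0.53). EGR1, a zinc finger factor whose promoter is printed above, measured 1455 and 1519 normalized counts at day 0 and 9564 and 4952 at day 4. These groups were apart although the day 4 libraries differed from each other, and EGR1 rose by 2.21 on the log2 scale (SE 0.33, limma adjusted p = 0.000449). EGR3, a relative of EGR1, was nearly silent at day 0 with 6.43 and 2.5 normalized counts and reached 213 and 194 at day 4. EGR2 went from 2.76 and 3.34 to 211 and 86.1. On the log2(count + 1) scale the changes were 5.32 (SE 0.36) for EGR3 and 5.07 (SE 0.62) for EGR2, and that scale understates changes from such low levels. ETV4, an ETS factor induced by ERK, rose by 0.48 (SE 0.09), from 1226 and 1185 to 1726 and 1643. MXI1, an antagonist of MYC, rose by 1.62 (SE 0.17). MYC itself was at 752 and 663 at day 0 and 1937 and 1096 at day 4. Its log2 change of 1.04 (SE 0.33, limma adjusted p = 0.0261) lost the call without either day 0 library and without the first day 4 library.

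Nuclear receptors of the NR4A family, also immediate early genes, moved in opposite directions. NR4A3 went from 34.9 and 51.7 normalized counts to 180 and 162 and rose by 1.98 (SE 0.25). NR4A2 went from 195 and 271 to 43.8 and 47.3 and fell by 2.31 (SE 0.30, limma adjusted p = 0.000181). AP-1, the dimer of FOS- and JUN-family proteins, was also split, since 7 of 16 tested members rose and 4 fell. The lower members numbered 2 without the first day 0 library. FOSB measured 17.5 and 9.18 at day 0 and 109 and 54 at day 4, and JUNB 752 and 800 at day 0 and 2813 and 1939 at day 4. FOSB rose by 2.51 (SE 0.46) and JUNB by 1.59 (SE 0.25), and the day 4 libraries were above the day 0 libraries in both. FOSL1, which encodes the ERK-stabilised factor FRA1, was abundant at day 0, with 13364 and 13016 normalized counts, and measured 6400 and 4635 at day 4. FOSL1 fell by 1.28 (SE 0.15, limma adjusted p = 0.000107) and its relative FOSL2 by 1.08 (SE 0.14). KLF2, a zinc finger factor linked to quiescence, went from 1410 and 1569 to 418 and 466, a fall of 1.75 (SE 0.22).

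**Figure D3:**
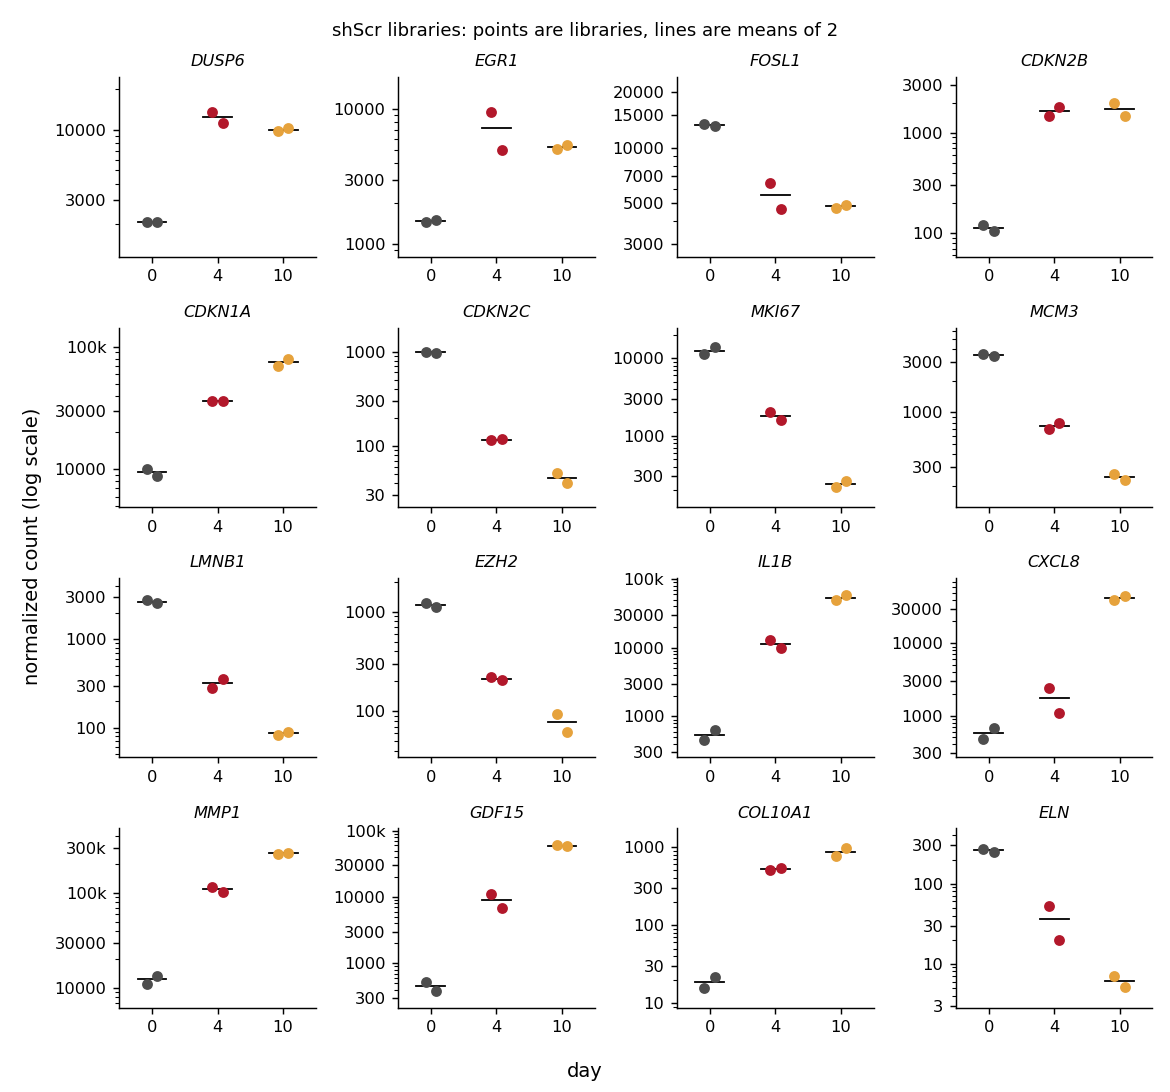
Normalized counts on a log scale (y axis) of 16 genes in the shScr libraries at days 0, 4 and 10 (x axis), with points for libraries and lines for means of 2. DUSP6, EGR1, CDKN2B and MMP1 are high at day 4 and FOSL1, CDKN2C, MKI67, MCM3, LMNB1 and EZH2 are low, while CXCL8 is far above its day 4 level at day 10 (38965 and 44346 against 2426 and 1099).

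CDK inhibitors changed in both directions. Of 11 tested members of the CDK inhibitor and RB family list 3 rose and 4 fell, and these counts were the same without any 1 of the 4 libraries. CDKN2B, which encodes the CDK4 and CDK6 inhibitor p15INK4B, measured 119 and 105 normalized counts at day 0 and 1463 and 1818 at day 4. Both day 4 libraries were far above day 0, and CDKN2B rose by 3.85 (SE 0.18, limma adjusted p = 3.72e-07). CDKN1A, which encodes p21, went from 10016 and 8866 to 35895 and 36085 and rose by 1.93 (SE 0.24). CDKN2A, the gene of p16INK4A and p14ARF, went from 113 and 114 to 244 and 240 and rose by 1.09 (SE 0.12). The counts do not separate the CDKN2A transcripts. CDKN2C, which encodes the related inhibitor p18INK4C and is itself an E2F target, moved the other way, from 998 and 965 to 116 and 117. CDKN2C fell by 3.06 (SE 0.36, limma adjusted p = 8.7e-05). RBL1, which encodes the RB relative p107, fell by 2.06 (SE 0.15), and RB1 itself was not called (-0.39, limma adjusted p = 0.0784, and 0.0147 when limma was fitted to the compared groups alone).

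E2F factors and G1/S cyclins were mostly lower, with 13 of 22 tested members down and 2 up. E2F2, an activator of S phase genes, measured 80.8 and 55.9 normalized counts at day 0 and 4.76 and 0.946 at day 4. That day 4 level was close to that of a few reads, and the log2 change was -4.35 (SE 0.60), from -5.13 to -3.57 without one or the other day 4 library. E2F8, a repressor, went from 161 and 140 to 11.4 and 21.8 and fell by 3.17 (SE 0.59). E2F7, the closest relative of E2F8 and also a repressor, rose from 2848 and 3336 to 9810 and 7821 (log2 change 1.51, SE 0.29). The other member that rose was CCND2, cyclin D2, from 251 and 237 to 657 and 688 (log2 change 1.46, SE 0.22). CCNE2, cyclin E2, and CDC25A, the phosphatase that activates CDK2, fell by 2.52 (SE 0.33) and 2.27 (SE 0.24).

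Every tested member of the mitosis list, 69 genes, fell, with a median log2 change of -1.95 and a range from -2.80 to -0.75. Without the second day 0 library or the second day 4 library 67 were called. MKI67, which encodes the Ki-67 protein that coats mitotic chromosomes, measured 11210 and 13818 normalized counts at day 0 and 1999 and 1590 at day 4. It stood lowest in the list, with a log2 change of -2.80 (SE 0.43, limma adjusted p = 0.000513). CDC20, the activator of the anaphase-promoting complex, went from 6662 and 6765 to 1163 and 1131 and fell by 2.55 (SE 0.33). The kinesin gene KIF20A fell by 2.73 (SE 0.50) and CENPA, the histone of centromeres, by 2.45 (SE 0.35). Of the other genes with a printed promoter, PLK1, a mitotic kinase, measured 4820 and 4640 at day 0 and 1082 and 1017 at day 4. CCNB2, cyclin B2, measured 2662 and 3026 at day 0 and 654 and 618 at day 4. In all these genes the lower day 0 library exceeded the higher day 4 library. The fall was not complete at day 4, since at day 10 MKI67 stood at 216 and 257 and CDC20 at 162 and 153.

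DNA replication genes fell as one block, with 48 of 49 tested members lower and 0 higher (median log2 change -1.66). MCM2 and MCM3 encode subunits of the replicative helicase. MCM2 measured 2224 and 2139 normalized counts at day 0 and 423 and 458 at day 4, and MCM3 measured 3588 and 3454 at day 0 and 691 and 797 at day 4. Day 4 libraries were the lower ones in both genes, and the log2 changes were -2.31 (SE 0.25) and -2.24 (SE 0.30). GINS3, another helicase subunit, was the lowest of the list at -2.55 (SE 0.20). PCNA, the sliding clamp of DNA polymerases, went from 2270 and 2408 to 922 and 1024, a smaller fall of 1.27 (SE 0.18). The list of DNA repair and checkpoint genes had 43 of 51 members lower and 1 higher. There the nuclease gene EXO1 fell by 2.31 (SE 0.35) and BRCA2, which acts in homologous recombination, by 2.11 (SE 0.19).

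In nucleotide synthesis 14 of 26 tested members fell and 1 rose. TYMS, thymidylate synthase, went from 1282 and 1163 to 239 and 221 (log2 change -2.40, SE 0.12). RRM2, the S phase subunit of ribonucleotide reductase, went from 9285 and 9294 to 2647 and 2476 (-1.86, SE 0.33). The single member that rose was RRM2B, another form of the same subunit, from 1117 and 1108 to 2838 and 2868. RRM2B rose by 1.36 (SE 0.15, limma adjusted p = 5.3e-05), so that the 2 forms of this subunit went in opposite directions.

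Nuclear structure genes were mostly lower, and chromatin genes moved in both directions. LMNB1, lamin B1 of the nuclear lamina, measured 2768 and 2561 normalized counts at day 0 and 280 and 361 at day 4. This was the largest fall among 19 tested lamina genes, 12 of which fell and 1 of which rose. LMNB1 fell by 3.06 (SE 0.41, limma adjusted p = 0.000227). TMPO, which encodes the lamina-associated LAP2 proteins, fell by 2.16 (SE 0.17) and LBR, the lamin B receptor, by 1.79 (SE 0.22). In the list of Polycomb, HMG and DNA methylation genes 21 of 41 members fell and 9 rose, and the higher members numbered 5 without either day 0 library. EZH2, the methyltransferase of Polycomb complex PRC2, went from 1213 and 1122 to 220 and 206 and fell by 2.45 (SE 0.18). The chromatin protein gene HMGB2 fell by 2.18 (SE 0.13), while HMGA2, an architectural protein found in senescent heterochromatin, went from 16374 and 17373 to 34214 and 32825 and rose by 0.99 (SE 0.12). KDM6B, a demethylase that removes the mark written by EZH2, went from 634 and 561 to 1741 and 1393 and rose by 1.38 (SE 0.13). Of 20 tested histone genes 8 rose and 2 fell (median log2 change 0.34), and 5 rose without the first day 0 or the second day 4 library. HIST1H2BD, a replication-type H2B gene, went from 72.6 and 42.6 to 212 and 215 and rose by 1.92 (SE 0.27), while H2AFZ, which encodes the variant H2A.Z, fell by 0.91 (SE 0.10). Histone genes are close copies of each other, so the split of reads among them is uncertain. The libraries were made from poly(A) RNA, so these counts cover only histone transcripts with a poly(A) tail and not all histone RNA.

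Splicing factors shifted by less but almost all one way, with 27 of 38 tested members lower and 0 higher (median log2 change -0.47). SRSF1, an SR protein that selects exons, went from 7450 and 7131 normalized counts to 3642 and 3947. SRSF7, of the same family, went from 3048 and 3113 to 1578 and 1655. Both genes were near 1 unit lower, at -0.94 (SE 0.17) and -0.93 (SE 0.10), and their libraries did not overlap. Calls were few among ribosomal protein and respiratory chain genes. Of 71 ribosomal protein genes 1 rose (RPS28) and 1 fell (RPSA), and of 52 respiratory chain genes 5 rose and 1 fell (1 to 4 rose without any 1 of the 4 libraries). RPS28 changed by 0.40 and RPSA by -0.34, the latter lost without the second day 0 or the first day 4 library. The single lower member of the MAPK feedback, plasminogen and glycolysis lists and the single higher member of the lamina and DNA repair lists also lost the call without at least 1 of the 4 libraries.

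**Figure D4:**
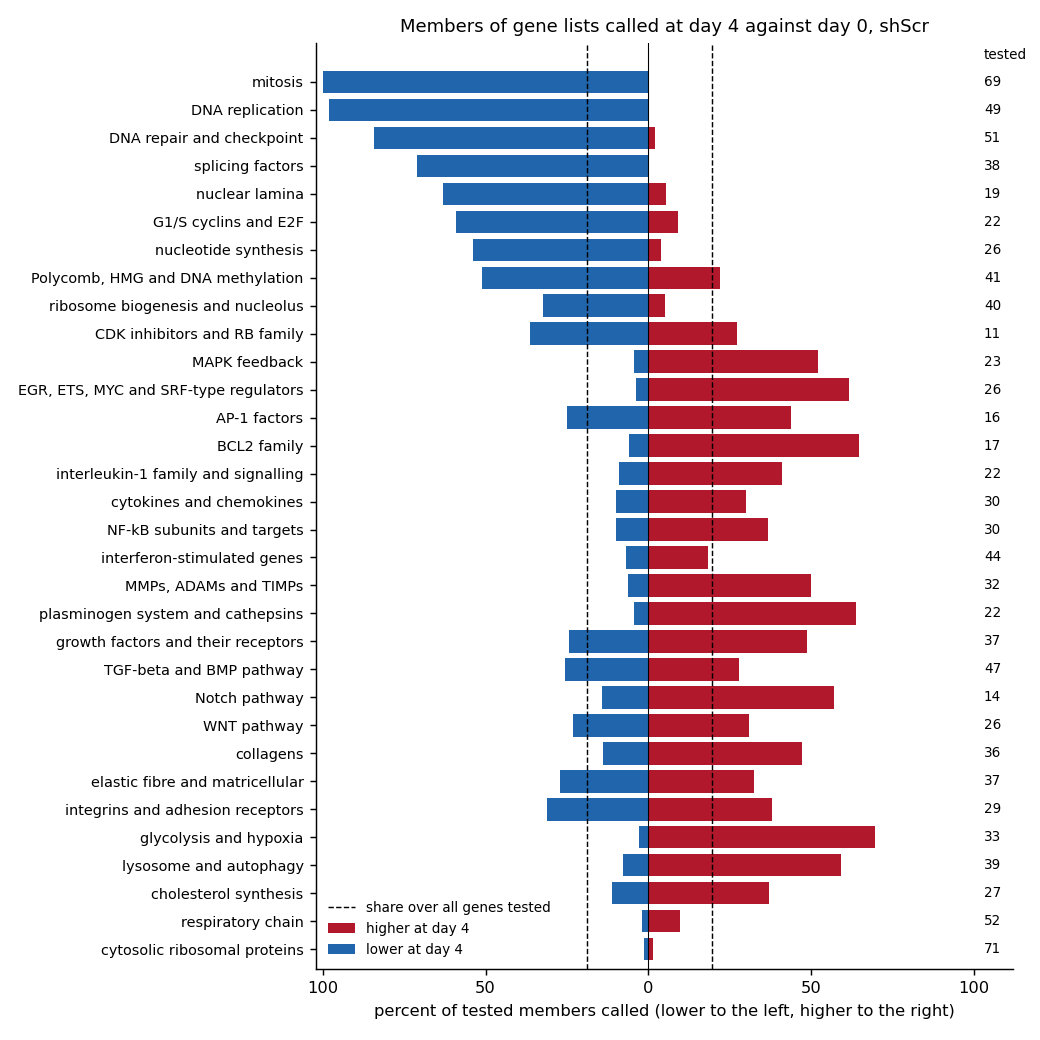
Percent of tested members called lower (left, blue) and higher (right, red) at day 4 in 32 gene lists, with dashed lines at the shares over all genes tested (18.9% and 19.4%). Mitosis and DNA replication genes reach 100% and 98% lower, and glycolysis and BCL2 family genes reach 69.7% and 64.7% higher.

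PLK3, a stress-activated kinase, measured 727 and 676 normalized counts at day 0 and 4114 and 3334 at day 4. Both day 4 libraries were well above day 0, and PLK3 rose by 2.40 (SE 0.41, limma adjusted p = 0.000985). BTG2, an antiproliferative factor, went from 87.3 and 65.9 to 233 and 347 (log2 change 1.89, SE 0.30). MDM2, a ubiquitin ligase gene, went from 1683 and 1814 to 3141 and 2868 (log2 change 0.78, SE 0.11). In the BCL2 family 11 of 17 tested genes rose and 1 fell, on both sides of the survival balance, and 7 rose without the first day 4 library. MCL1, which protects cells from apoptosis, went from 8649 and 8796 to 25008 and 25125 and rose by 1.52 (SE 0.10). BBC3 and BMF, whose products promote apoptosis, rose by 1.49 (SE 0.22) and 1.53 (SE 0.20). BCL2, a survival gene, was the member that fell, from 46.9 and 42.6 to 16.2 and 8.52 (-1.84, SE 0.36).

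The interleukin-1 ligands were raised at day 4. Of 22 tested members of the interleukin-1 list 9 rose and 2 fell. IL1B, the secreted interleukin-1 beta, measured 454 and 632 normalized counts at day 0 and 13016 and 9856 at day 4. IL1A, which encodes interleukin-1 alpha that senescent cells carry at their surface, measured 68 and 58.4 at day 0 and 1158 and 843 at day 4. Both day 4 libraries stood many-fold above day 0 for each ligand. IL1B rose by 4.40 (SE 0.53, limma adjusted p = 0.000108) and IL1A by 3.95 (SE 0.54, limma adjusted p = 0.000243). Downstream, IRAK2, a kinase that carries the receptor signal, went from 390 and 496 to 1553 and 983 (log2 change 1.49, SE 0.31). IRAK3, which blocks that signal, went from 520 and 502 to 190 and 190 and fell by 1.42 (SE 0.15). Both ligands were higher still at day 10, with 49464 and 57823 for IL1B and 8779 and 9814 for IL1A.

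Most SASP cytokines had not followed to the same degree. Of 30 tested cytokine and chemokine genes 9 rose and 3 fell, 30.0% and 10.0% against 19.4% and 18.9% over all genes. Fewer of them rose without any 1 of the 4 libraries. CXCL8, which encodes the neutrophil attractant interleukin-8, measured 475 and 666 normalized counts at day 0 and 2426 and 1099 at day 4. Day 4 libraries differed from each other by more than 2-fold, and the change of 1.54 (SE 0.66) was not called (limma adjusted p = 0.0895). IL6 was at 125 and 110 at day 0 and 375 and 166 at day 4, likewise not called (1.08, SE 0.43, limma adjusted p = 0.0698). CXCL1 changed by 0.50 (SE 0.53) and CCL2, a monocyte attractant, by -1.59 (SE 0.61), and neither was called. These misses do not show that the levels stayed the same. Without either shIL1R day 10 library limma called CXCL8, IL6 and CCL2 (adjusted p = 0.00581, 0.0342 and 0.00269 without the first), and edgeR on recovered reads called IL6 (adjusted p = 0.0345). At day 10 the levels were 38965 and 44346 for CXCL8 and 1900 and 1801 for IL6. The secreted factors that did rise included CSF2, which encodes GM-CSF, from 33.1 and 52.6 to 890 and 311 (log2 change 3.63, SE 0.70, and 2.87 without the first day 4 library). TNFSF15, a TNF-family ligand, measured 40.4 and 37.6 at day 0 and 3185 and 2429 at day 4. It rose by 6.12 (SE 0.32, limma adjusted p = 7.55e-07), the largest rise in the list. CSF3, which encodes G-CSF, was at 1.84 and 1.67 at day 0 and at 79.9 and 61.5 at day 4, with too few reads at day 0 to give a ratio. LIF, a cytokine of the interleukin-6 family named here after its values were seen, went from 516 and 432 to 2247 and 2629 (log2 change 2.36, SE 0.17). CXCL12, a chemokine that growing fibroblasts make, fell from 239 and 290 to 16.2 and 21.8 (-3.74, SE 0.83), and CSF1, which encodes M-CSF, fell by 0.87 (SE 0.15).

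Of 30 tested NF-kB subunit and target genes 11 rose and 3 fell, 36.7% and 10.0% against 19.4% and 18.9% over all genes. The higher ones numbered 5 or 6 without either day 0 library or the first day 4 library, and the lower ones 1 or 2 without any 1 of the 4 libraries. ICAM1, an adhesion receptor for leukocytes, measured 627 and 487 normalized counts at day 0 and 5128 and 3530 at day 4. PTGS2, the inducible cyclooxygenase COX2 of prostaglandin synthesis, measured 211 and 276 at day 0 and 1324 and 777 at day 4. ICAM1 rose by 2.94 (SE 0.47, limma adjusted p = 0.000659) and PTGS2 by 2.07 (SE 0.38), with the day 4 libraries above day 0 in both. CEBPB, a factor that drives SASP cytokine genes together with NF-kB, went from 617 and 583 to 2570 and 1601 (log2 change 1.76, SE 0.27). Of 44 tested interferon-stimulated genes 8 rose and 3 fell, 18.2% and 6.82% against 19.4% and 18.9% over all genes tested. Without any 1 of the 4 libraries 2 to 5 of them were up. OAS3, a sensor of double-stranded RNA, went from 718 and 697 to 115 and 98.4 and fell by 2.72 (SE 0.44). GBP2, an interferon-induced GTPase, fell by 2.17 (SE 0.31), and ISG20, an exonuclease, rose by 1.86 (SE 0.33). Complement C5 fell by 1.73 (SE 0.17), while PTX3, a pentraxin of the acute phase, rose by 1.67 (SE 0.19).

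In the list of metalloproteinases, ADAMs and their TIMP inhibitors rises outnumbered falls. Of 32 tested metalloproteinase, ADAM and TIMP genes 16 rose and 2 fell (median log2 change 0.83), and the lower ones numbered 1 or 3 without any 1 of the 4 libraries. MMP1, the interstitial collagenase, measured 11082 and 13494 normalized counts at day 0 and 116449 and 102052 at day 4. Both day 4 libraries were far above day 0, and MMP1 rose by 3.16 (SE 0.18, limma adjusted p = 1.03e-06). MMP10, stromelysin 2, went from 23.9 and 19.2 to 106 and 96.5 (log2 change 2.19, SE 0.32). MMP3, stromelysin 1, was at 376 and 379 at day 0 and 1146 and 980 at day 4, and reached 40035 and 48905 by day 10. Its day 4 rise of 1.49 (SE 0.37, limma adjusted p = 0.00873) lost the call without the first day 4 library. ADAM19, a membrane protease that sheds neuregulin, rose by 2.03 (SE 0.14), and ADAMTS5, an aggrecanase, fell by 1.20 (SE 0.25).

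In the plasminogen system 14 of 22 tested genes rose and 1 fell. TFPI2, an inhibitor of serine proteases in the matrix, measured 4434 and 4873 normalized counts at day 0 and 31027 and 31380 at day 4. Libraries of each day were close to each other, and TFPI2 rose by 2.75 (SE 0.10, limma adjusted p = 6.59e-08). The activator gene PLAT, which encodes tPA, went from 18681 and 20434 to 63378 and 50126 (log2 change 1.53, SE 0.19). SERPINB2 (PAI-2), an inhibitor of tPA, rose by 1.71 (SE 0.38).

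Of 37 tested growth factor and receptor genes 18 rose and 9 fell, and the lower ones numbered 5 without the first day 0 or the second day 4 library. GDF15, a stress-induced member of the TGF-beta superfamily, measured 521 and 385 normalized counts at day 0 and 10994 and 6888 at day 4. It rose by 4.28 (SE 0.46, limma adjusted p = 5.12e-05), and no day 4 library came near day 0. ANGPT2, an angiopoietin that acts on the receptor TEK, measured 29.4 and 36.7 at day 0 and 693 and 412 at day 4, and then 142 and 131 by day 10. ANGPT2 rose by 3.98 (SE 0.33) up to day 4 and fell by 1.97 (SE 0.33, limma adjusted p = 0.000729) from day 4 to day 10, where 21.7% of genes tested rose and 22.4% fell. ANGPTL4, a lipase inhibitor, rose by 2.71 (SE 0.14) and STC1, stanniocalcin, by 1.95 (SE 0.19). Among EGF-family ligands, EREG went from 181 and 228 to 1630 and 1578 and AREG from 22 and 25.9 to 234 and 148. EREG (epiregulin) rose by 2.98 (SE 0.29) and AREG (amphiregulin) by 2.91 (SE 0.34). PAPPA, a protease that frees IGF from its binding proteins, went from 376 and 412 to 2113 and 1901 (log2 change 2.35, SE 0.14), while IGFBP3, one such binding protein, fell by 1.36 (SE 0.21). FGF7, a fibroblast factor for epithelium, fell by 1.30 (SE 0.31), BDNF by 1.12 (SE 0.16), and MET, the receptor of hepatocyte growth factor, by 1.02 (SE 0.14).

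The TGF-beta and BMP list held 13 higher and 12 lower genes of 47 tested, 27.7% and 25.5% against 19.4% and 18.9% over all genes. The higher ones numbered 7 without the first day 4 library, and the lower ones 6 or 7 without either day 0 library or the second day 4 library. BMP2, a ligand, measured 856 and 763 normalized counts at day 0 and 8445 and 6196 at day 4. FST, which encodes the activin and BMP antagonist follistatin, went the other way, from 6422 and 6071 to 1277 and 1222. BMP2 rose by 3.16 (SE 0.18, limma adjusted p = 1.09e-06) and FST fell by 2.32 (SE 0.16, limma adjusted p = 2.95e-06), each with separate libraries. The BMP target genes ID3 and SMAD6 fell. ID3 went from 3880 and 4356 to 1817 and 1026 (-1.59, SE 0.21), and SMAD6 from 146 and 159 to 36.1 and 55.8 (-1.74, SE 0.30). TGFB1 rose by 1.00 (SE 0.11).

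In the Notch pathway 8 of 14 tested genes rose and 2 fell. The higher ones numbered 5 without the first day 4 library, and the lower ones 0 without the second library of day 0 or of day 4. The receptor gene NOTCH1 went from 1273 and 1355 normalized counts to 3050 and 2295 and the ligand gene JAG1 from 313 and 304 to 603 and 601. The target genes HEY1 and HES1, transcriptional repressors, went from 36.7 and 47.6 to 327 and 245 and from 54.2 and 71.8 to 446 and 183. Every day 4 library was above every day 0 library in these 4 genes, and most genes tested likewise did not overlap between the days. The log2 changes were 1.01 (SE 0.14) for NOTCH1, 0.96 (SE 0.14) for JAG1, 2.73 (SE 0.28) for HEY1 and 2.18 (SE 0.37) for HES1, the last 1.53 or 2.82 when one or the other day 4 library was left out. At day 10 HES1 was at 95.6 and 97.2, lower than at day 4 by 1.56 on the log2 scale (limma adjusted p = 0.00583). WNT genes gave 8 higher and 6 lower of 26, 30.8% and 23.1% against 19.4% and 18.9% over all genes. Fewer of them were higher without any 1 of the 4 libraries, and fewer were lower without either day 0 library or the first day 4 library. The ligand gene WNT7B rose by 2.65 (SE 0.16) and the receptor gene FZD8 by 2.36 (SE 0.25), while the receptor genes FZD7 and FZD2 fell by 1.54 (SE 0.12) and 1.53 (SE 0.14). AXIN2, a feedback target of beta-catenin, measured 24.8 and 24.2 at day 0 and 6.66 and 5.68 at day 4 and fell by 1.83 (SE 0.40).

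Matrix genes moved in both directions. Of 36 tested collagen genes 17 rose and 5 fell (3 lower without the first day 0 library or the second library of either day). COL10A1, a short-chain collagen known from cartilage, measured 15.6 and 21.7 normalized counts at day 0 and 506 and 536 at day 4. It rose by 4.75 (SE 0.23, limma adjusted p = 4.29e-07), and the libraries of the days were far apart. COL5A3, a chain of collagen V, rose by 3.06 (SE 0.27) and COL7A1, the anchoring fibril collagen, by 2.36 (SE 0.33). COL6A1, of the beaded filaments, went from 58063 and 50168 to 158311 and 138908 (log2 change 1.46, SE 0.15). COL1A1, the main fibrillar chain, was at 126356 and 98907 at day 0 and 104595 and 115872 at day 4. These values overlapped, and the change of -0.02 (SE 0.31) was not called (limma adjusted p = 0.965). The fibril-associated COL14A1 went from 435 and 384 to 92.3 and 60.6 and fell by 2.43 (SE 0.30).

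Among 37 elastic fibre and matricellular genes 12 rose and 10 fell, 32.4% and 27.0% against 19.4% and 18.9% over all genes. Fewer rose and fewer fell without any 1 of the 4 libraries. POSTN, periostin, measured 159 and 152 normalized counts at day 0 and 1942 and 1970 at day 4. Libraries of each day nearly coincided, and POSTN rose by 3.65 (SE 0.09, limma adjusted p = 1.04e-09). ELN, elastin, went from 272 and 247 to 52.3 and 19.9, and at day 10 stood at 7.08 and 5.06. ELN fell by 2.96 up to day 4 (SE 0.42, limma adjusted p = 0.00029), with a log2 change of -3.64 or -2.29 when one or the other day 4 library was left out. The small proteoglycan genes DCN (decorin) and LUM (lumican), both fibroblast markers, fell by 1.87 (SE 0.20) and fell by 1.94 (SE 0.23), while their relative BGN (biglycan) rose by 1.46 (SE 0.21). Hyaluronan genes also parted, in a list of proteoglycan and hyaluronan genes where 5 of 24 tested members rose and 5 fell. These shares, 20.8% each, were near those over all genes. HAS2, a hyaluronan synthase, went from 3148 and 3850 to 8388 and 7333, and CEMIP, needed for hyaluronan breakdown, from 5398 and 3922 to 464 and 215. HAS2 rose by 1.17 (SE 0.16) and CEMIP fell by 3.86 (SE 0.38, limma adjusted p = 3.17e-05). At day 10 HAS2 was back to 1822 and 2458.

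Adhesion receptors gave 11 higher and 9 lower of 29 tested. ITGB3, the integrin beta 3 chain, went from 1559 and 1445 normalized counts to 6032 and 5072, and ITGA2, a collagen receptor chain, from 11469 and 14212 to 41606 and 35939. ITGB3 rose by 1.88 (SE 0.11) and ITGA2 by 1.60 (SE 0.17), and CDH2, N-cadherin, fell by 0.99 (SE 0.12). L1CAM, an adhesion protein of neurons and tumour cells, rose by 2.42 (SE 0.16). Of 24 tested contractile genes 3 rose and 5 fell, 12.5% and 20.8% against 19.4% and 18.9% over all genes. Fewer were higher without any 1 of the 4 libraries, and the number of lower ones varied. ACTA2, smooth muscle actin, was at 1853 and 1340 at day 0 and 1634 and 1532 at day 4, with overlapping libraries and no call (0.01, SE 0.15, limma adjusted p = 0.982). TAGLN, which binds actin in the same cells, fell by 1.11 (SE 0.15) and MYH10, a nonmuscle myosin, by 1.51 (SE 0.18). AXL, a receptor kinase under YAP control, went from 29424 and 28187 to 12679 and 10446 and fell by 1.32 (SE 0.12). In the list of YAP and TAZ responsive genes 4 of 20 tested members rose and 8 fell (20.0% and 40.0%). Of 32 tested fibroblast regulators 9 rose and 4 fell, 28.1% and 12.5% against 19.4% and 18.9% over all genes. TCF21, which marks lung lipofibroblasts, went from 1097 and 1016 to 307 and 258 and fell by 1.90 (SE 0.21), whereas PRRX1, a mesenchymal homeobox factor, went from 2264 and 2597 to 6331 and 6038 and rose by 1.35 (SE 0.09). At day 10 PRRX1 was at 2319 and 2087, which overlapped its day 0 values.

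Glycolysis and hypoxia genes had the highest share of rising members among the lists plotted, 23 of 33, with 1 lower (median log2 change 0.48). SLC2A3, the glucose transporter GLUT3, measured 1753 and 1859 normalized counts at day 0 and 10075 and 6595 at day 4. It rose by 2.17 (SE 0.29, limma adjusted p = 0.00023). ALDOC, an aldolase, went from 601 and 567 to 2135 and 2256 (log2 change 1.91, SE 0.12), and CA9, a carbonic anhydrase and hypoxia marker, from 19.3 and 21.7 to 82.8 and 115 (2.20, SE 0.26). The lower member was EPAS1, which encodes the hypoxia factor HIF-2 alpha, at -0.68 (SE 0.19, limma adjusted p = 0.0179), a call lost without the first library of either day and without the second day 4 library. Lysosome and autophagy genes gave 23 higher and 3 lower of 39. CTSS, cathepsin S, went from 198 and 221 to 1183 and 1082 (log2 change 2.43, SE 0.39). TFEB, the regulator of lysosomal genes, went from 76.3 and 81.8 to 224 and 200 (1.41, SE 0.16). GLB1, the source of senescence-associated beta-galactosidase activity, changed by 0.24 (SE 0.08, limma adjusted p = 0.0274), a call lost without the first day 4 library, without either day 0 library and under quantile normalization. In cholesterol synthesis 10 of 27 genes rose and 3 fell, led by INSIG1, the sterol-regulated brake on SREBP, from 402 and 411 to 1635 and 1442 (log2 change 1.92, SE 0.20).

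Several of the largest changes lay outside these pathways. LCE1F, a late cornified envelope gene of skin, measured 10.1 and 7.51 normalized counts at day 0 and 1690 and 2344 at day 4, and 11272 and 14575 at day 10. It rose by 7.68 (SE 0.50, limma adjusted p = 2.09e-06), the largest rise among genes with a mean of 50 or more normalized counts at day 4. LCE genes are close copies of each other, so the split of reads among them is uncertain. CYP26B1, which breaks down retinoic acid, went from 7.35 and 2.5 to 270 and 282 (5.68, SE 0.40). SLC6A15, a neutral amino acid transporter, went from 540 and 585 to 10437 and 12268 (4.33, SE 0.12), and SYT7, a synaptotagmin of lysosome exocytosis, from 2.76 and 4.17 to 102 and 92.8 (4.48, SE 0.24). On the lower side LINC00707, a long noncoding RNA, went from 120 and 124 to 5.71 and 3.79 (-4.44, SE 0.35). CDCA7, a MYC and E2F target that helps to keep DNA methylated, went from 435 and 411 to 26.6 and 33.1 (-3.79, SE 0.44). For each of these genes the libraries of the days did not overlap. That was a condition of the rule that named them, so it adds no evidence. Of all genes tested, 10529 did not overlap between day 0 and day 4.

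The response of shIL1R cells over the same days was tested against that of shScr cells, to see where the early response differed with the hairpin. A difference was called for 4 genes (0.0287% of those tested), and at an unadjusted p below 0.05 the shIL1R change was lower for 821 and higher for 704. All 4 rose in shScr cells, and all had a lower change in shIL1R cells. The count was 0 without any 1 of the 6 shScr libraries or without the second shIL1R library of day 0 or of day 4. It was 13 without the first shIL1R day 4 library, and 22 or 26 without the first or second shIL1R day 10 library, and DESeq2 on recovered reads called 104. DPP4, a surface peptidase and marker of senescent fibroblasts, measured 456 and 473 normalized counts at day 0 and 1489 and 1507 at day 4 in shScr cells. In shIL1R cells DPP4 was at 876 and 1158 at day 0 and 1020 and 1220 at day 4. Between genotypes the changes differed by -1.54 (limma adjusted p = 0.0319). TFRC, the transferrin receptor for iron uptake, went from 2392 and 2359 to 3178 and 3103 in shScr cells and from 2294 and 2501 to 1719 and 1378 in shIL1R cells, a difference of -1.04 (limma adjusted p = 0.0495). The rise of TFRC in shScr cells, 0.40 on the log2 scale, lost its call without the second day 0 or the first day 4 library. The interleukin-1 ligands, with their large rise, were not called for a difference. The shIL1R change minus the shScr change was -2.42 for IL1B (limma adjusted p = 0.321) and -2.06 for IL1A (limma adjusted p = 0.369). IL1B at day 4 was at 5552 and 1989 in shIL1R cells, both below the shScr libraries, but the spread within that group was wide. TNFSF15 (-3.04, limma adjusted p = 0.0601), CYP26B1 (-3.66, limma adjusted p = 0.067) and LIF (-1.51, limma adjusted p = 0.067) did not pass the threshold either.

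**Figure D5:**
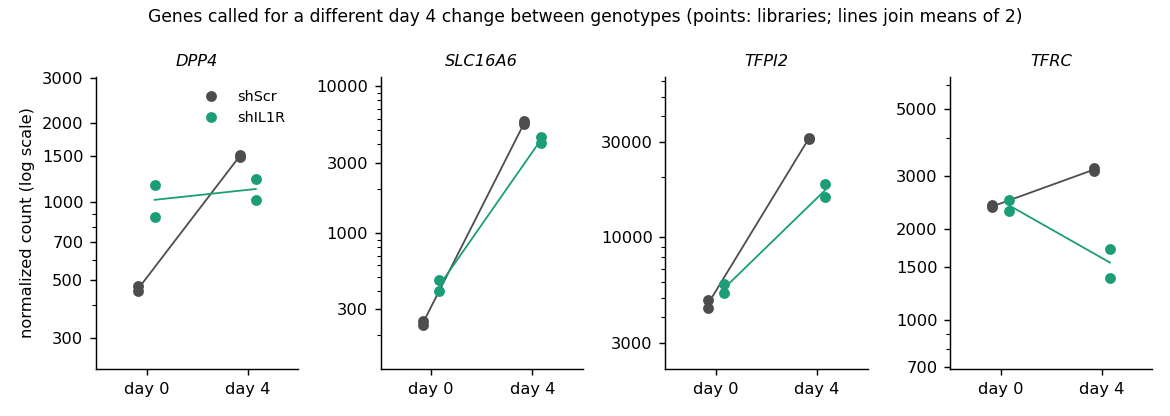
Normalized counts on a log scale (y axis) of the 4 genes called for a different change between genotypes, at days 0 and 4 (x axis), in shScr (grey) and shIL1R (green) libraries, with lines joining means of 2. DPP4 rises from 456 and 473 to 1489 and 1507 in shScr cells and stays between 876 and 1220 in shIL1R cells, and TFRC falls in shIL1R cells while it rises in shScr cells.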

How the data were processed

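Poly(A) RNA was made into strand-specific libraries, per the labels' protocols. The submitters' processing notes name TopHat, HTSeq and DESeq2 and the build hg19, with no versions. How strand was treated in counting, and by which annotation, is not given in the sources used here. The deposited values are a signal, counts normalized to library size by the authors. Divided by the value of 1 read (0.834 to 0.951 normalized counts in the 4 compared libraries), 100% came out whole within 0.001 reads, and edgeR 4.0.16 and DESeq2 1.42.0 were run on these recovered reads. Replicates differed beyond counting error, as chi-square over its degrees of freedom was 7.87 at day 0 and 23.8 at day 4.

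Levels were fitted as log2(normalized count + 1) with limma 3.58.1 in R 4.3.3. The model had 1 mean for each of 6 groups of 2 libraries, so all 12 share one estimate of the spread. Moderation used eBayes with an intensity trend, which gave 6 residual degrees of freedom and 4.98 prior ones. The comparisons were shScr day 4 minus day 0, the difference of that change between genotypes, and shScr day 10 minus day 4, which shares the day 4 libraries with the first. Adjustment was by Benjamini and Hochberg's method over all 13924 genes tested, two-sided, with calls below 0.05. The standard error (SE) is limma's. The fit was tested on simulated data.

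The members and the 65 gene lists were chosen with earlier results of these data known, and list counts are descriptions. The rule for named genes takes the construct genes, the 15 called genes that rose most and the 15 that fell most among those reaching a mean of 50 without overlap, up to 5 called members a list and direction (or the 2 of highest level without calls), senescence markers fixed by name, and up to 10 genes a direction for the difference between genotypes. It gives 447 genes, of which 168 are printed, a choice made after values were seen. CCNB2, LIF, MCM3, PCNA and PLK1 lie outside it and were also chosen after values were seen. Alternatives were other pseudocounts, filters, scalings, moderation, tools and thresholds, a replicate block, the compared groups alone and each library left out. List counts without each compared library were added after the data were seen. Promoter windows came from RefSeq (GRCh38.p14), matched by symbol for 10336 of the 13924 genes tested. Some items are not reported here.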

Additional observations from a re-analysis of the deposited data

Results flagged for a closer look

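Of the comparisons run, 4 genes differed between genotypes in their change from day 0 to day 4, by limma's test of the difference itself. DPP4 had a shIL1R change lower than the shScr change by 1.54 on the log2 scale, that is a difference of -1.54 (SE 0.22, limma adjusted p = 0.0319). Its shIL1R libraries already stood above the shScr libraries at day 0, at 876 and 1158 against 456 and 473 normalized counts. SLC16A6, a monocarboxylate transporter gene, differed by -1.23, with 236 and 252 at day 0 and 5492 and 5758 at day 4 in shScr cells and 400 and 476 at day 0 and 4473 and 4065 at day 4 in shIL1R cells. TFPI2 differed by -1.12, with 18512 and 15909 at day 4 in shIL1R cells against 31027 and 31380 in shScr cells. TFRC differed by -1.04 and was the only one of the 4 to fall in shIL1R cells (-0.64, limma adjusted p = 0.000639).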

How the results depend on the processing

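Depth, 24140324 to 30127727 reads per library, limits genes near 0 in 1 group, and a pseudocount of 5 moved EGR2 from 5.07 to 4.12 and E2F2 from -4.35 to -3.25. With 2 libraries a group, leaving out any of the 12 libraries moved the count of genes called at day 4 between 3332 and 6334 (1722 to 3238 higher, 1610 to 3096 lower), the count from day 4 to day 10 between 4359 and 7075, and the difference between genotypes between 0 and 26 genes. A library left alone in its group is assumed to vary like the others. A 2-fold threshold left 1765 genes at day 4 (812 higher, 953 lower) and 1928 from day 4 to day 10. The difference between genotypes called 0 genes without a filter, 1 after quantile normalization and 104 with DESeq2. The other planned settings kept these counts within 1.5 times. The main fit did not pair samples by replicate number. Deviations of same-numbered libraries correlated between -0.208 and 0.336, which cannot show whether the samples were paired. A replicate block gave 5295 calls at day 4, 4 between genotypes (without TFPI2 and TFRC) and 6137 from day 4 to day 10, and within genotype 5224, 0 and 6085; IL6 and CCL2 were called with it (limma adjusted p = 0.0313 and 0.0285). Of 173 genes printed 165 were called at day 4, and 143 of these in every setting with a value. Direction reversed, without a call, for ACTA2 (-0.034 after quantile normalization, -0.0055 with edgeR, -0.015 with DESeq2, and -0.23 to 0.24 with 1 library left out), COL1A1 (-0.20 to 0.15) and IL1R1 (-0.11 to 0.014); the cause was not tested.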

Other observations

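Other gene groups were compared between day 0 and day 4 in shScr cells, where 19.4% of all genes tested rose and 18.9% fell. Of 40 tested ribosome biogenesis and nucleolar genes 13 fell (32.5%) and 2 rose (1 without any 1 of the 4 libraries). NOP56, a core protein of the particles that methylate ribosomal RNA, went from 2839 and 2807 normalized counts to 1310 and 1419 (log2 change -1.05, SE 0.09), and RRS1, an assembly factor of the large subunit, from 1389 and 1452 to 639 and 692 (-1.09, SE 0.16). Of 35 proteasome genes 8 fell (22.9%, near the share over all genes) and 2 rose, and 4 fell without the second day 0 or the first day 4 library. Of 12 retinoic acid genes 5 rose and 1 fell, and 3 rose without the second day 0 library. RARA, a retinoic acid receptor, went from 425 and 361 to 843 and 756 (log2 change 1.02, SE 0.12).

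The antioxidant list had 7 higher and 5 lower of 32 genes (21.9% and 15.6%, near the shares over all genes). The higher ones numbered 4 without the first day 4 library, and the lower ones 3 without either day 0 library or the second day 4 library. GPX3, a secreted glutathione peroxidase, went from 215 and 241 normalized counts to 41.9 and 37.9 and fell by 2.49 (SE 0.29, limma adjusted p = 8.08e-05). MT1E, a metallothionein, went from 989 and 965 to 436 and 432 and was at 2262 and 2221 at day 10. It fell by 1.17 (SE 0.16) up to day 4 and rose by 2.37 (SE 0.16) from day 4 to day 10. Metallothionein genes are close copies of each other, so the split of reads among them is uncertain. Of 21 tested long noncoding RNAs from the list 1 rose and 1 fell (4.76% each, below the shares over all genes), and 3 rose without the first day 4 library. MIR31HG, which was the one that rose and has been linked to control of the INK4 locus, went from 409 and 522 to 1537 and 1631 (log2 change 1.78, SE 0.15).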
